A study of Mus musculus with 20 samples.

Results

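Peroxisome proliferator-activated receptors (PPARs) and retinoid X receptors (RXRs) were followed as mRNA in BAT, the heat-producing brown fat of the mouse. The 6 genes were taken by symbol: Ppara, Ppard and Pparg for the PPARs, and Rxra, Rxrb and Rxrg for the RXRs. They are 6 of 55471 gene IDs in each table, and all 6 were among the 15233 genes that passed the expression filter. The mice were CEBPB WT or carried an adipose specific CEBPB KO, which removes the transcription factor C/EBP beta from fat, and were held at room temperature (RT) or put under cold stress for 4 h. The 4 groups (WT_RT, WT_cold, KO_RT and KO_cold) held 5 libraries each, 20 in all. The promoter that drives the deletion, the strain, the age and the temperature of the cold are not given in the sources used here. The title of the study names PPAR gamma and C/EBP alpha in acute cold, and the groups ask how the receptors answer to cold with and without C/EBP beta.

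PPARs are ligand-activated transcription factors that bind DNA as a pair with an RXR, mostly at direct repeats of a short receptor half-site. PPAR gamma is the master regulator of fat cell formation and the target of the glitazone drugs, PPAR alpha drives fatty acid oxidation and is enriched in brown over white fat, and PPAR delta is a broadly expressed fatty acid sensor. The RXRs answer to 9-cis retinoic acid and are shared with other receptors, among them the thyroid hormone, retinoic acid, liver X and vitamin D receptors. C/EBP factors and PPAR gamma are known to act in a common program of fat cell formation, in which C/EBP beta comes early.

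Cebpb, the deleted gene, was at 105 ± 19.9 CPM (gene counts scaled to library size; mean ± SD, n = 5) in WT_RT and 143 ± 22.4 in WT_cold, against 0.564 ± 0.253 in KO_RT and 1.92 ± 0.277 in KO_cold. Brown adipocyte markers fitted the tissue label: Ucp1, the heat-producing uncoupling protein, was at 6372 ± 1379 CPM in WT_RT and 11989.9 ± 866 in WT_cold, and none of 9 brown adipocyte markers was at 0 in a group. With cold, 3 of the 9 rose and 5 fell in each genotype. Of all genes tested, 26.2% rose and 30.2% fell in WT, and 27.5% rose and 31.7% fell in KO. Depth ran from 27.07 to 55.18 M gene counts per library. Along the first principal component of log2(CPM + 1), which held 63.8% of the variance and set RT apart from cold, WT_RT replicate 4 (-20.8) and WT_cold replicate 5 (17.5) lay nearest the middle; the other 18 libraries lay from -39.9 to -27 at RT and from 29.3 to 36.8 in the cold. Without both, 4 receptors changed with cold in WT in place of 3, and 1 with the knockout at RT in place of 0, in each case by the addition of Ppard, while the 3 calls of the knockout in the cold stood. The labels do not say that libraries came from separate animals, so p-values measure the spread between libraries, which may be technical. In whole tissue, fewer cells of a type and less RNA per cell cannot be told apart.

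4 stretches of DNA at receptor starts are shown because the deleted factor binds DNA and because Pparg, Rxra and Rxrg are the receptors that differed with the knockout in the cold. They are 2 of 3 Pparg windows, 1 of 2 Rxra windows and 1 of 2 Rxrg windows in the table; the downstream Pparg and the internal Rxrg window were picked for their matches. Each holds the 250 bases before the RefSeq start site and the first 10 bases from it, on the plus strand of GRCm38.p6, 5′ to 3′. Capitals mark exact matches, on either strand, to TTGCNNAA, the core letters of a C/EBP site. The first Pparg stretch is chr6:115362099-115362358, the second Pparg stretch chr6:115421816-115422075, the Rxra stretch chr2:27676951-27677210 and the Rxrg stretch chr1:167618015-167618274.
Pparg, upstream start: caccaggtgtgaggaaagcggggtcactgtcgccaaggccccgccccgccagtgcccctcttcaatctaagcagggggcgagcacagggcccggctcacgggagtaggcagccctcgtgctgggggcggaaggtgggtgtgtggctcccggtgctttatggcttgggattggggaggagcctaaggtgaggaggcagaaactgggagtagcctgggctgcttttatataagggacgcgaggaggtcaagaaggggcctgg
Pparg, downstream start: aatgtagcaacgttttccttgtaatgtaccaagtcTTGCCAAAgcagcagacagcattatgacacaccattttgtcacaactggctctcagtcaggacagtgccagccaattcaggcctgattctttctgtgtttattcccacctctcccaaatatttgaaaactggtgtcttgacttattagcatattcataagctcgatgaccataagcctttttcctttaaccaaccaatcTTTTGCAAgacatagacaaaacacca
Rxra: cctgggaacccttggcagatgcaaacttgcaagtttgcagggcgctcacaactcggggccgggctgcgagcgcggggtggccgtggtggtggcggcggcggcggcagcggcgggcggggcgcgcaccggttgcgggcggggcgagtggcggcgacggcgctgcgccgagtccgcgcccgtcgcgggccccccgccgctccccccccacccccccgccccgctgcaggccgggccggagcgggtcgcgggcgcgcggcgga
Rxrg, internal start: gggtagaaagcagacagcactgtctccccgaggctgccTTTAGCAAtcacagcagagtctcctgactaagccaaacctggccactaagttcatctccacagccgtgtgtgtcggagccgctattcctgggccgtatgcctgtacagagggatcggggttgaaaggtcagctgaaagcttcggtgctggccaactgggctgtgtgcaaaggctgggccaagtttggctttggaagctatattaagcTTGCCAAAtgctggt
The downstream Pparg start opens the transcript Pparg-201, of 505 codons, which is the fat-selective form PPAR gamma 2; Pparg-202 and Pparg-204, of 475 codons, start at bases 115360951 and 115362292, the latter within the upstream stretch shown, whose own start site is that of Pparg-206, of 96 codons. The internal Rxrg start lies by that of Rxrg-202, of 340 codons; Rxrg-201, Rxrg-203 and Rxrg-204, of 463 codons, start by the other Rxrg window, which held no match. Counts per gene do not tell these forms apart. Of 11 RefSeq windows of 300 bases at the starts of the 6 genes, 2 held TTGCNNAA: that of the downstream Pparg start (first bases of the matches at -215 and -16 from the start) and that of the internal Rxrg start (-212 and -5). The other 9 held none. The motif lies in 10.8% of 32851 mouse windows of this length. No window of the 6 genes held TGACGTCA, the cAMP response element (1.79% of windows), or the direct repeat of AGGTCA with 1 base between that PPAR and RXR read (DR1, 0.0396%). The 3 motifs were searched on both strands and do not overlap one another in these windows, and a match describes letters, not binding.

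All 6 genes lie on the plus strand: Pparg (ENSMUSG00000000440.12) at chr6:115360951-115490399, Ppara (ENSMUSG00000022383.13) at chr15:85734983-85802819, Ppard (ENSMUSG00000002250.16) at chr17:28232700-28301474, Rxra (ENSMUSG00000015846.15) at chr2:27676440-27762957, Rxrb (ENSMUSG00000039656.17) at chr17:34031812-34038399 and Rxrg (ENSMUSG00000015843.10) at chr1:167598384-167639623. Spans are those of GENCODE M21; for Rxra that release holds another version of the gene model, so its length, and each share built on it, is less certain. The exons of the 6 shared no base with another gene. The antisense gene Gm44079 lies within the span of Pparg on the other strand, and shares 0 of its exon bases.

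To compare levels between genes, CPM were divided by exon length in kilobases (RPKM). At RT, Pparg was the highest of the 6 (74.3 ± 8.24 RPKM in WT_RT and 73.1 ± 3.94 in KO_RT), above 97.6% of 15217 genes in both groups. Ppara came next, at 49.7 ± 5.09 RPKM in WT_RT and 49.2 ± 7.68 in KO_RT. The RXRs were lower per length. In WT_RT Rxrg reached 14.7 ± 1.34 RPKM, Rxra 13.0 ± 2.31 and Rxrb 8.41 ± 0.551, and the libraries of Rxrg and Rxra overlapped. Ppard was the lowest, at 2.95 ± 0.428 RPKM in WT_RT, and its libraries lay under those of each other receptor in each group. By summed exon length, the order was the same in WT_RT, WT_cold and KO_RT. In KO_cold Rxrb (7.26 ± 0.460 RPKM) stood above Rxra (6.55 ± 0.580), with overlapping libraries. With the length of the longest transcript, Rxrb stood above Rxra in WT_cold too. There Rxrb held 27.8% of the summed RXR level and Rxra 24.0%, so the order of these 2 depends on the length used. In the cold Ppara and Rxrg overlapped in both genotypes, and Rxra and Rxrb overlapped in WT_cold.

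The make-up of the RXR family moved more than its sum. Rxrg held 40.8 ± 5.16% of the summed RXR RPKM at RT and 52.6 ± 3.64% in the cold in WT, and 45.6 ± 4.61% at RT and 65.4 ± 3.04% in the cold in KO. Rxra went the other way, with 35.9 ± 4.93% and 25.6 ± 3.29% in WT, and 32.9 ± 3.42% and 16.4 ± 1.85% in KO. The RXR sum was 36.1 ± 1.98 RPKM at RT and 37.0 ± 2.68 in the cold in WT, against 35.2 ± 1.47 and 40.1 ± 2.82 in KO. The ratio of Rxrg to Rxra was thus 1.17 ± 0.332 in WT_RT and 4.05 ± 0.699 in KO_cold, with 2.10 ± 0.404 in WT_cold and 1.41 ± 0.288 in KO_RT. The PPAR sum was 127 ± 7.87 RPKM at RT and 109 ± 13.4 in the cold in WT, against 125 ± 6.48 and 89.5 ± 11.1 in KO. Pparg made up 58.4 ± 4.26% and 69.6 ± 5.74% of it in WT, and 58.7 ± 4.37% and 61.3 ± 6.24% in KO. These shares are descriptions, with no test.

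**Figure D1:**
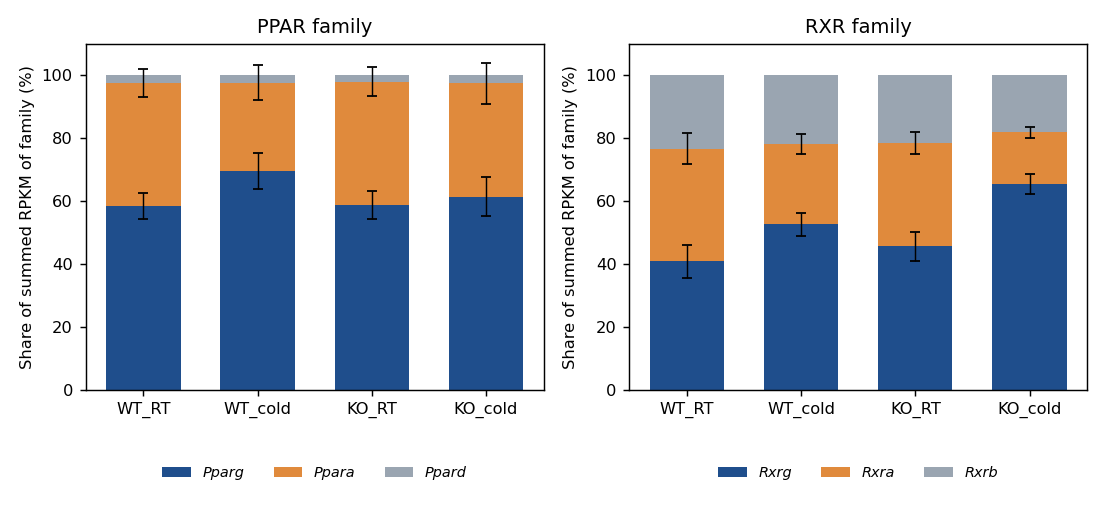
Share of each receptor in the summed RPKM of its family (y axis, %) in the 4 groups, for PPARs (left) and RXRs (right); bars are means over 5 libraries, and each error bar is the SD of the share whose top it sits on. The Rxrg share runs from 40.8% in WT_RT to 65.4% in KO_cold, and the Rxra share from 35.9% to 16.4%.

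Changes were tested on counts with edgeR, and a change is called where the p adjusted over all 15233 genes is under 0.05. After cold in WT, 3 of the 6 receptors changed, 1 up and 2 down, where 56.4% of all genes tested did (26.2% up, 30.2% down). The WT_RT and WT_cold libraries did not overlap for 2 of the 6, Ppara and Rxrg, against 38.2% of all genes. After cold in KO, 4 of 6 changed, 1 up and 3 down, where 59.2% of all genes did (27.5% up, 31.7% down), and 3 (Pparg, Rxra and Rxrg) did not overlap, against 44.9%. The share of receptors that moved with cold is thus near that of all genes. The knockout at RT changed 0 of 6 receptors, against 2.7% of all genes (1.38% up, 1.32% down), and the libraries of all 6 overlapped where 4.98% of genes did not; 2 of the 6 had an unadjusted p under 0.05 and DESeq2 also called 0. The knockout in the cold changed 3 of 6, 1 up and 2 down, against 7.7% of all genes (3.51% up, 4.19% down); the same 3 did not overlap, against 7% of genes. There Ppard (0.0434) and Rxrb (0.0218) also had an unadjusted edgeR p under 0.05. In the interaction, which asks whether cold acts differently in the 2 genotypes, 0 of 6 passed, against 0.742% of all genes (0.427% up, 0.315% down); 3 had an unadjusted p under 0.05, and DESeq2 called 1, Pparg. Cold in WT and knockout at RT share the WT_RT libraries, and the other comparisons share groups in the same way, so their values are given side by side and not correlated.

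Pparg, the fat cell regulator, stayed level in WT and was lower in KO_cold. At RT its libraries read 239.9, 236, 229, 181 and 211 CPM in WT and 199, 230.3, 222, 212 and 216 in KO. In the cold they read 202, 234, 214, 261 and 204 CPM in WT and 163, 149, 163, 177 and 152 in KO. The 5 KO_cold libraries lay below those of each other group, and the other 3 groups overlapped. The log2 change with cold was 0.02 ± 0.0793 (SE) in WT (adjusted p = 0.815; 95% interval -0.14 to 0.19) and -0.42 ± 0.0796 in KO (adjusted p = 9.36e-05), a fall of 25.5%. In the cold the knockout lowered Pparg by 27.9% (log2 change -0.47 ± 0.0796, adjusted p = 0.000411), while at RT the change was -0.02 ± 0.0793 (adjusted p = 0.945; 95% interval -0.19 to 0.14). The difference between the cold responses was -0.45 ± 0.112 log2 units (adjusted p = 0.0674 by edgeR's quasi-likelihood test). Pparg passed that test with DESeq2 (adjusted p = 0.0197), with no expression filter (0.0276), without WT_cold replicate 1 (0.0490) and without WT_cold replicate 5 (0.0483). The interaction of Pparg passed in no other alternative, among them RLE scaling (0.0750), the replicate block (0.119) and the skeletal muscle term (0.125). Of 20 single libraries left out, 2 gave a pass, and the highest adjusted p was 0.128.

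Ppara, the driver of fatty acid oxidation, fell with cold in both genotypes. The WT libraries read 159.7, 203, 204, 204 and 182 CPM at RT and 106, 108, 76.4, 142 and 158 in the cold. The KO libraries read 216, 156, 222, 183 and 166 CPM at RT and 158, 94.4, 80.9, 149.6 and 147 in the cold. The WT groups did not overlap, and the KO groups did, by 1 library on each side. Among the receptors Ppara spread most between libraries of a cold group, with a coefficient of variation of 27.4% in WT_cold and 28.2% in KO_cold. The log2 change was -0.69 ± 0.197 in WT (adjusted p = 0.00622) and -0.58 ± 0.197 in KO (adjusted p = 0.0167). The KO call rested on single libraries: without KO_RT replicate 3 the change was -0.49 (adjusted p = 0.0531), without KO_cold replicate 2 it was -0.47 (0.0584) and without KO_cold replicate 3 it was -0.43 (0.0530). The knockout itself left Ppara at -0.01 ± 0.196 at RT (95% interval -0.43 to 0.40) and 0.09 ± 0.197 in the cold (-0.32 to 0.51).

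Ppard, the broadly expressed fatty acid sensor, passed no test. In WT its means were 22.2 ± 3.21 CPM at RT and 19.3 ± 2.61 in the cold, in KO 18.2 ± 1.03 and 16.7 ± 1.01, and the libraries of the groups compared overlapped. The log2 change was -0.20 ± 0.0942 with cold in WT (adjusted p = 0.0706) and -0.29 ± 0.0947 with the knockout at RT (adjusted p = 0.124). WT_RT replicate 4 held 17.8 CPM, the lowest of its group. Without it both passed, at -0.25 for cold in WT (adjusted p = 0.0240) and -0.36 for the knockout at RT (adjusted p = 0.0378).

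**Figure D2:**
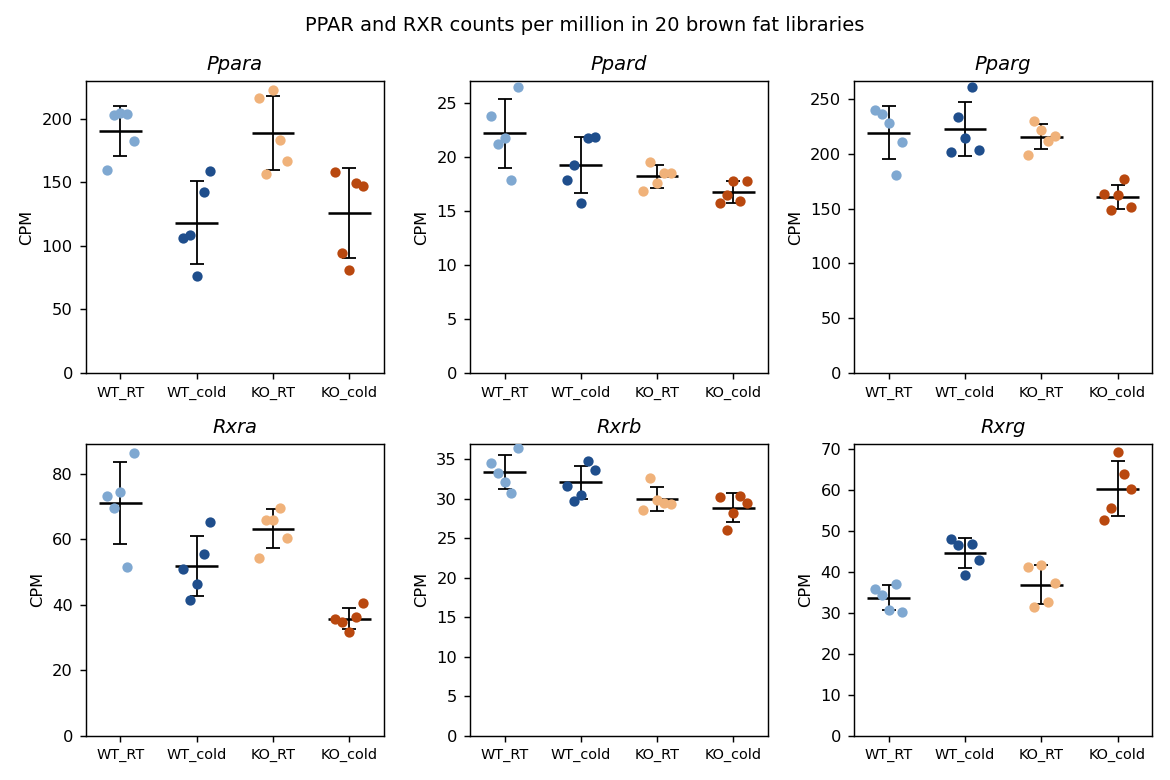
CPM (y axis, from 0) of the 6 receptors in the 4 groups; each point is a library, the line the mean and the bar the SD, n = 5. The 5 KO_cold libraries of Pparg (149 to 177 CPM), Rxra (31.7 to 40.5) and Rxrg (52.8 to 69.4) do not overlap those of WT_cold.

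Rxra, a widely expressed partner of PPARs, fell with cold in both genotypes and was lower still in KO_cold. The WT libraries read 73.3, 69.6, 74.4, 51.6 and 86.5 CPM at RT and 50.8, 41.5, 46.2, 55.6 and 65.4 in the cold. The KO libraries read 54.4, 65.8, 65.8, 69.7 and 60.3 CPM at RT and 35.6, 34.7, 31.7, 36.2 and 40.5 in the cold. The WT groups overlapped, the KO groups did not, and each KO_cold library lay below each WT_cold library, the highest of the former at 40.5 CPM and the lowest of the latter at 41.5. The log2 change with cold was -0.45 ± 0.121 in WT (adjusted p = 0.00314) and -0.82 ± 0.122 in KO (adjusted p = 8.25e-06), falls of 26.97% and 43.4%. In the cold the knockout lowered Rxra by 31.1% (-0.54 ± 0.122, adjusted p = 0.00763). At RT the change was -0.17 ± 0.120 (adjusted p = 0.597), and the interaction of -0.37 ± 0.171 did not pass (adjusted p = 0.476).

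Rxrg, the RXR of narrower range, which is known from skeletal muscle and brain, was the 1 receptor that rose. The WT libraries read 35.9, 34.5, 30.8, 37.1 and 30.2 CPM at RT and 48.0, 46.6, 39.2, 47.0 and 42.9 in the cold. The KO libraries read 41.3, 31.4, 41.7, 32.8 and 37.3 CPM at RT and 52.8, 55.7, 69.4, 64.0 and 60.2 in the cold. Cold and RT did not overlap in either genotype, and each KO_cold library lay above each WT_cold library. The log2 change with cold was 0.41 ± 0.0895 in WT (adjusted p = 0.000512) and 0.71 ± 0.0899 in KO (adjusted p = 6.61e-07), which is 1.33-fold and 1.64-fold. The knockout raised Rxrg 1.35-fold in the cold (0.43 ± 0.0892, adjusted p = 0.00302). At RT the change was 0.13 ± 0.0898 (adjusted p = 0.576), and the interaction of 0.30 ± 0.127 did not pass (adjusted p = 0.402).

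Rxrb, the evenly expressed RXR, passed no test. In WT its means were 33.4 ± 2.19 CPM at RT and 32.1 ± 2.13 in the cold, in KO 30.0 ± 1.54 and 28.9 ± 1.83. With cold the log2 change was -0.06 ± 0.0608 in WT (95% interval -0.19 to 0.07) and -0.05 ± 0.0614 in KO (-0.18 to 0.08). With the knockout it was -0.16 ± 0.0610 at RT (adjusted p = 0.216) and -0.15 ± 0.0612 in the cold (adjusted p = 0.154). The unadjusted 95% intervals of these 2 changes were -0.29 to -0.03 at RT and -0.28 to -0.02 in the cold.

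**Figure D3:**
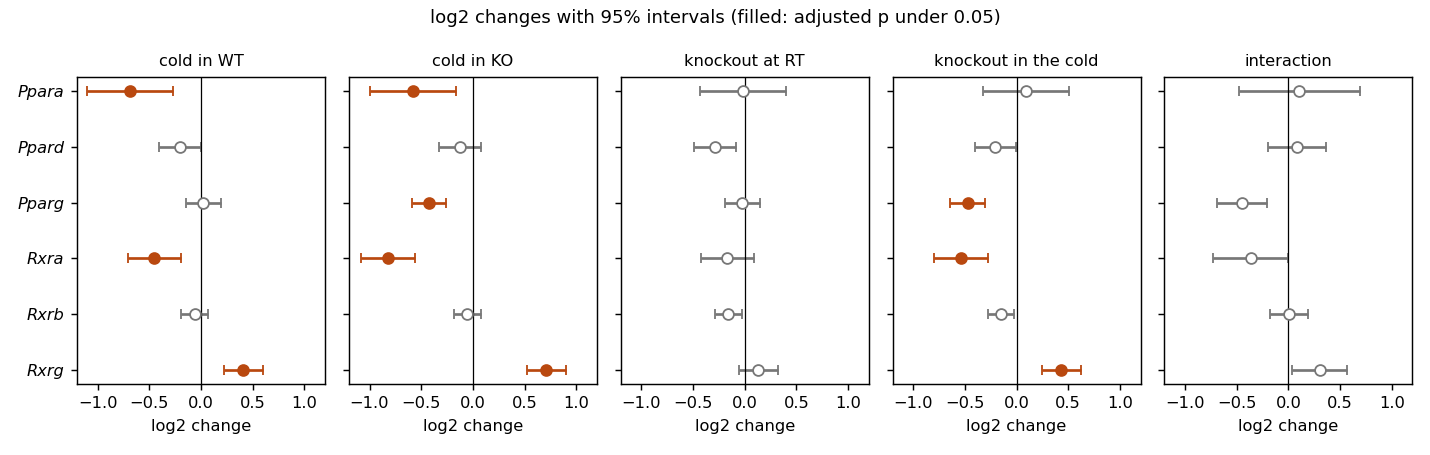
log2 change (x axis) of the 6 receptors in the 5 comparisons, with 95% intervals; filled points passed at an adjusted p under 0.05. Rxrg lies to the right and Rxra to the left of 0 in both cold comparisons and in the knockout in the cold, and no point is filled for the knockout at RT or the interaction.

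Of 18 skeletal muscle markers, 17 fell with cold in each genotype and 0 rose. Their sum ran from 61.9 to 1615 CPM in WT_RT and 88.3 to 717 in KO_RT, against 53.9 to 93.2 in WT_cold and 52.2 to 61.9 in KO_cold, where Ckm and Myh4 were at 0. With their mean as a term in the fit, Rxrg kept its rise (log2 change 0.42, adjusted p = 0.00358 in WT; 0.73, adjusted p = 0.000166 in KO). Rxra in WT did not keep its call (-0.35, adjusted p = 0.0571), nor did Ppara in KO (-0.72, adjusted p = 0.0568). The Ppara change in KO was larger with the term (-0.72 ± 0.294, against -0.58 ± 0.197 without it), and so was its SE. In KO the marker sums at RT and in the cold did not overlap, so the term and the cold cannot be fully told apart. Of 12 endothelial markers, 6 rose and 3 fell with cold in WT, and 8 rose and 3 fell in KO, where 26.2% and 27.5% of all genes rose and 30.2% and 31.7% fell. Their sums overlapped in WT (1010 to 1285 CPM at RT and 1178 to 1389 in the cold) and did not in KO (850 to 1108 and 1268 to 1456). The sum over 8 Schwann cell markers was 112 to 165 CPM at RT and 148 to 272 in the cold in WT, and 166 to 194 and 212 to 340 in KO, with 1 marker up and 1 down in each genotype. Of 14 macrophage markers, 3 rose and 1 fell in WT and 4 rose and 0 fell in KO, and of 12 lymphocyte markers tested, 6 fell in WT and 5 in KO and 0 rose. The part of these other cell types in the receptor changes was not tested.

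Markers of fibroblasts and fat progenitors were called higher in part with the knockout at both temperatures. Their sum over 12 genes was 719 to 953 CPM in WT_RT and 890 to 1197 in KO_RT, which overlapped. In the cold, where Pparg and Rxra were lower and Rxrg higher, it was 864 to 1009.7 CPM in WT_cold and 1085 to 1227 in KO_cold, with no overlap. Of the 12, 4 were higher and 0 lower with the knockout in the cold, where 3.51% of all genes were higher and 4.19% lower: Lum (log2 change 0.48), Pdgfra (0.41), Col1a2 (0.35, lost in 3 of 19 alternatives) and Dcn (0.29). At RT, where 0 of the 6 receptors passed, 2 were higher, Pdgfra (0.32, lost in 7 of 19) and Dcn (0.29, lost in 8 of 19). None of the 12 was at 0 in a group. Their part in the receptor changes was not tested. The brown adipocyte sum overlapped, at 16322 to 19088 CPM in WT_cold and 15715 to 17771 in KO_cold. It is weighted to Ucp1, at a mean of 11990 of 17834 CPM in WT_cold and 12979 of 17145 in KO_cold. Of the 9 brown adipocyte markers, 0 were higher and 3 lower with the knockout in the cold, against 3.51% and 4.19% of all genes. Over single libraries left out, Elovl3 gave -1.54 to -1.31, Adrb3 -1.47 to -1.22 and Ebf2 -0.57 to -0.32. The call of Ebf2 was lost in 13 of 19 alternatives. At RT, where 0 of the 6 receptors passed, 0 of the 9 were higher and 2 lower, against 1.38% and 1.32% of all genes. There Elovl3 gave -1.86 to -1.26 over single libraries left out, and its call was lost in 1 of 19 alternatives. Dio2 gave -1.31 to -0.97, and its call was lost in 7 of 19. The part of these falls in the receptor changes was not tested.

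Across the 20 libraries Rxra and Rxrg ran in opposite directions, with Pearson's r of -0.90 and Spearman's rho of -0.89. The libraries share the 4 groups, of which each cold group differs from the RT group of its genotype in both genes, and over deviations from the group means r was -0.42, so these values are a description of group differences with no p. The genes most like each receptor, by Pearson's r of log2 CPM over 20 libraries among 9195 genes, were Mpst (0.96), Slc1a3 (0.96) and Dpp3 (0.94) for Rxra, and Slc22a5 (0.94), Tuba4a (0.94) and Ubtf (0.94) for Rxrg. For Pparg they were Ttf2 (0.91), Ptdss2 (0.87) and Xdh (0.87). Those of Ppara were Lipe (0.87), Stat6 (0.87) and Parp3 (0.86). Those of Ppard were Inppl1 (0.88), Tst (0.86) and Ldah (0.85), and those of Rxrb Tcn2 (0.87), Echdc2 (0.86) and Ppp1r1a (0.86). All libraries share depth scaling and groups. Over deviations from group means r ranged from 0.44 for Xdh with Pparg to 0.86 for Dpp3 with Rxra.

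**Figure D4:**
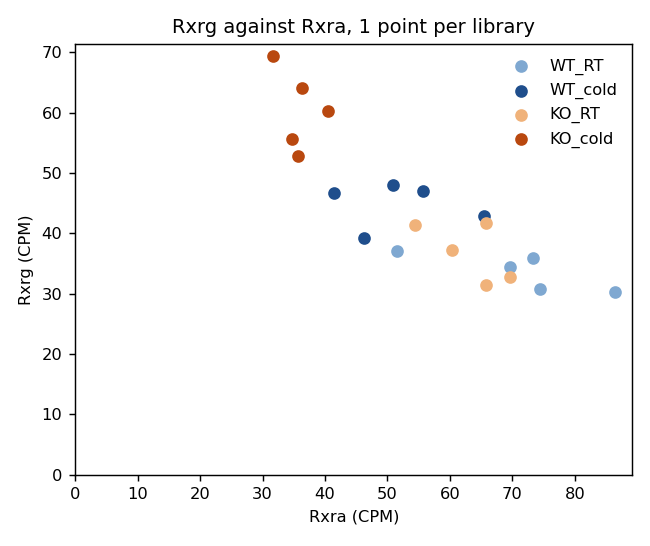
Rxrg against Rxra in CPM, with 1 point per library and a color per group. The 5 KO_cold libraries lie at the upper left (Rxra 31.7 to 40.5, Rxrg 52.8 to 69.4 CPM), apart from the 15 others.

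Other receptors pair with RXR, and 10 of 13 on a list of them were tested. In WT 3 rose and 4 fell with cold (median log2 change 0.00 against -0.05 over all genes), and in KO 4 rose and 4 fell (median 0.12 against -0.05). The shares of all genes that rose and fell were 26.2% and 30.2% in WT, and 27.5% and 31.7% in KO. The thyroid hormone receptors fell: Thra by 0.70 log2 units in WT and 0.60 in KO, and Thrb by 0.97 and 0.74. The retinoic acid receptor genes Rarb (fell by 0.62 and 0.71) and Rarg (fell by 0.53 and 0.31) were lower too, and Rarg in KO lost its call in 7 of 18 alternatives. The vitamin D receptor gene Vdr rose by 1.32 in WT and 1.57 in KO. Nr4a1 and Nr4a2, orphan receptors switched on early after stimulation, rose most: Nr4a1 by 2.92 in WT and 4.07 in KO, and Nr4a2 by 2.51 and 3.801. Per length, Nr4a2 reached 28.4 ± 11.2 RPKM in WT_cold and 78.7 ± 19.99 in KO_cold, and Nr4a1 26.7 ± 13.4 and 60.1 ± 20.5. These means lay above those of Rxrg in both groups (19.5 ± 1.59 and 26.3 ± 2.88). In the cold the knockout raised 1 of the 10, Nr4a2 (log2 change 1.47 ± 0.274, adjusted p = 0.00218). The knockout lowered 0 of the 10 there, while 3.51% of all genes were higher and 4.19% lower. Nr1h2, the liver X receptor beta gene, rose in KO (0.35, adjusted p = 0.000439) and in WT was at 0.17 (adjusted p = 0.0557).

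Coactivators, which receptors recruit to switch genes on, moved in both directions with cold. Of 14, 7 rose and 5 fell in WT (median 0.15 against -0.05 over all genes), and 8 rose and 4 fell in KO (median 0.18 against -0.05). All genes tested gave 26.2% up and 30.2% down in WT, and 27.5% up and 31.7% down in KO. Ppargc1a, PGC-1 alpha, the cold-induced partner of PPARs, rose by 3.24 ± 0.307 log2 units in WT and 3.78 ± 0.314 in KO. The next were Ncoa1, the steroid receptor coactivator 1 gene (1.08 in WT and 1.14 in KO), Pprc1 (0.88 and 1.05) and Med1, the Mediator subunit that contacts receptors (0.75 and 0.78). Kat2b, a histone acetylase, fell by 0.73 and 0.93, and Ncoa2 fell by 0.37 and 0.39. In the cold the knockout raised 0 and lowered 1 of 14, against 3.51% and 4.19% of all genes. The gene lowered was Ppargc1b (log2 change -0.27, adjusted p = 0.0394), whose call was lost in 10 of 19 alternatives. Of 9 corepressors, 1 rose and 2 fell in WT (median 0.08 against -0.05), and 3 rose and 1 fell in KO (median 0.19 against -0.05). Hdac3, the deacetylase of the NCoR complex, fell by 0.42 in WT and 0.59 in KO, and Gps2 of the same complex rose by 0.32 and 0.43. Ncor1 fell with cold in WT (-0.32, adjusted p = 0.000376) and with the knockout at RT (-0.27, adjusted p = 0.0303), the latter lost in 9 of 19 alternatives. Nrip1, or RIP140, rose in KO by 0.99.

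Genes that carry or make lipid ligands gave 2 up and 4 down of 12 tested with cold in each genotype (medians 0.00 in WT and -0.18 in KO, against -0.05 over all genes in both), where 56.4% of all genes changed in WT and 59.2% in KO. Rdh10, which makes retinal on the way to retinoic acid, fell by 0.82 in WT and 1.004 in KO, and Retsat, a retinol saturase, fell by 0.52 and 0.48. Fabp3, a fatty acid carrier, rose by 0.60 and 0.98. Fabp4, which takes ligands to PPAR gamma, was at 0.06 in WT (adjusted p = 0.592) and -0.09 in KO (adjusted p = 0.366). Rbp4, the retinol carrier, was higher with the knockout at RT (log2 change 1.42 ± 0.111, adjusted p = 7.00e-08) and in the cold (1.25 ± 0.110, adjusted p = 2.56e-07), and Fabp5 was lower in the cold (-0.44 ± 0.0910, adjusted p = 0.00312). Of 13 enzymes reported to modify PPAR gamma protein, 3 rose and 3 fell with cold in WT and 2 rose and 4 fell in KO (medians 0.01 and -0.06, against -0.05 over all genes). Siah2, a ubiquitin ligase, rose by 1.05 and 1.35, and Cdk5, which phosphorylates PPAR gamma, fell by 0.30 and 0.48.

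Transcription factors reported to act on the Pparg gene gave 4 up and 8 down of 18 with cold in WT (median -0.03 against -0.05 over all genes) and 7 up and 7 down in KO (median -0.33 against -0.05). Among all genes tested, 26.2% rose and 30.2% fell in WT, and 27.5% and 31.7% in KO. Cebpa, C/EBP alpha, fell by 1.99 ± 0.237 log2 units in WT, from 526 ± 41.2 to 133 ± 74.2 CPM, and by 2.34 ± 0.240 in KO, from 520.5 ± 35.0 to 103 ± 12.2. Srebf1, a regulator of lipid synthesis, fell by 2.25 and 3.04, Stat5a by 2.23 and 2.98, and Ebf2, a brown fat factor, by 1.12 and 1.61. Ebf1 rose by 0.41 and 0.76. Under the knockout in the cold 0 of the 18 rose and 3 fell, where 3.51% of all genes were higher and 4.19% lower. Those that fell were Cebpb itself, the deleted gene (-6.23), Ebf2 (-0.47, adjusted p = 0.0393) and Stat5b (-0.29, adjusted p = 0.0362). The calls of Ebf2 and Stat5b were lost in 13 and 10 of 19 alternatives. Cebpa did not pass there (-0.37 ± 0.230, adjusted p = 0.417).

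Adipocyte target genes of PPAR gamma, a list of 24 that holds Pparg itself and Cebpa, gave 4 up and 11 down with cold in WT (median -0.22 against -0.05) and 6 up and 13 down in KO (median -0.30 against -0.05). Cold raised 26.2% and lowered 30.2% of all genes in WT, and 27.5% and 31.7% in KO. Hcar1, the lactate receptor, fell most, with log2 changes of -3.37 in WT and -3.40 in KO. Lipe, hormone-sensitive lipase, fell by 1.10 and 1.05. Dgat1, which closes triglyceride synthesis, rose by 1.18 and 1.39, and Lpl, lipoprotein lipase, by 0.85 and 1.32. At RT the knockout lowered 2 of the 24, Lpl (-0.64 ± 0.104, adjusted p = 0.000806) and Cfd, the adipsin gene (-0.66 ± 0.151, adjusted p = 0.0195), the latter lost in 5 of 19 alternatives. In the cold, where Pparg was lower in the knockout, 1 rose and 5 fell (median -0.17 against 0.00), with Pparg itself counted. Of all genes, 3.51% were higher and 4.19% lower with the knockout in the cold, and 1.38% and 1.32% at RT. Besides Pparg those that fell included Plin1, the droplet coat gene (-0.41 ± 0.0818, adjusted p = 0.00239), Agpat2 (-0.79 ± 0.232, adjusted p = 0.0440) and Acsl1 (-0.35 ± 0.103, adjusted p = 0.0386). Agpat2, of triglyceride synthesis, lost its call in 11 of 19 alternatives and Acsl1, the acyl-CoA synthetase, in 8. Aqp7, the glycerol channel, rose (0.40 ± 0.0900, adjusted p = 0.00678).

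With cold, 26.2% of all genes rose and 30.2% fell in WT, and 27.5% rose and 31.7% fell in KO. Fatty acid use target genes of PPAR alpha and delta gave 4 up and 8 down of 28 tested with cold in WT (median -0.13 against -0.05) and 6 up and 9 down in KO (median -0.15 against -0.05). Among them Angptl4, an inhibitor of lipoprotein lipase, fell by 0.95 and 0.68 and the peroxisomal thiolase gene Acaa1b by 1.02 and 1.16, while Plin2, a droplet protein, rose by 0.93 and 0.70. In the cold the knockout lowered Pex11a, a peroxisome division gene (-0.63 ± 0.113, adjusted p = 0.000825), and raised Ucp3 (0.46 ± 0.131, adjusted p = 0.0342, lost in 7 of 19 alternatives). Target genes of other RXR pairs gave 0 up and 8 down of 12 with cold in WT (median -0.63 against -0.05) and 0 up and 4 down in KO (median -0.39 against -0.05). Of these, Srebf1, Rarb, Nr1h3, Cyp26b1 and Dhrs3 stand on other lists too. Abca1, the cholesterol exporter induced by liver X receptors, fell by 0.77 and 1.77, and Thrsp, induced by thyroid hormone, by 1.33 and 2.24. In the cold the knockout lowered Abca1 (-1.30 ± 0.182, adjusted p = 0.000126) and raised Hr, a thyroid hormone-induced corepressor (1.47 ± 0.159, adjusted p = 3.4e-06). Hr was higher with the knockout at RT too (0.67 ± 0.152, adjusted p = 0.0190, lost in 4 of 19 alternatives).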

How the data were processed

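mRNA of BAT was sequenced in 20 libraries; the KAPA stranded kit is named in the labels' protocols. The submitters' processing notes name Trim Galore 0.6.0, STAR 2.7.8a and the build GRCm38.p6, without their settings; the annotation release is not given in the sources used here. The deposited values are counts of reads per gene. The reverse-strand column (94.5% to 95.7% of stranded counts) was used. The 4 entries that name no gene were left out: unmapped (3.86% to 5.66%), multiply mapped (18.3% to 21.4%), no feature (3.14% to 4.55%) and ambiguous (1.02% to 1.16%). Mitochondrial genes held 28.8% to 36.0% of gene counts. No 2 libraries of a group agreed within sampling noise.

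From the counts, R 4.3.3 with edgeR 4.0.16 kept genes by filterByExpr (count minimum 10, total minimum 15), scaled by TMM and made 1 robust quasi-likelihood fit of the 4 groups (16 residual degrees of freedom), with Benjamini-Hochberg adjustment over 15233 genes. The procedure was tested on simulated data. CPM use TMM library sizes, log2 CPM a prior count of 2, and RPKM the summed exon length of GENCODE M21, matched without ID version. Starts and sequences are from RefSeq (GRCm38.p6), which matched 6 of 6 genes.

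The 6 receptors, the gene lists and the alternatives were chosen with earlier results of these data known. From each list, up to 4 genes per direction were named, those of largest change that passed and reached 5 CPM on average in either group, besides reference genes (Cebpb, Cebpa, Ppargc1a, Ucp1, Fabp4); a gene named for 1 comparison is also given in others, and Nr1h2 in WT is given beside its KO value. Some named genes are not reported here. Alternatives were RLE scaling, no filter, DESeq2 1.42.0, only the groups compared, a replicate block, both strands, no mitochondrial genes, a skeletal muscle term, each library left out, WT_RT replicate 4 and WT_cold replicate 5 both left out, and longest-transcript lengths.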

Additional observations from a re-analysis of the deposited data

Results flagged for a closer look

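The cold response of 2 genes on the marker lists differed between genotypes by the interaction test of edgeR. These were the only calls among the tested genes of all the lists, where 0.742% of all genes tested passed. Adrb3, the beta-3 adrenergic receptor of brown fat, fell by 0.70 log2 units with cold in WT and by 2.15 in KO, an interaction of -1.444 (SE 0.295, adjusted p = 0.0261). That call was lost in 5 of 28 alternatives, among them no expression filter and both WT_RT replicate 4 and WT_cold replicate 5 left out. Cnn1, the smooth muscle calponin, rose by 0.91 with cold in WT and by 2.76 in KO, an interaction of 1.851 (SE 0.364, adjusted p = 0.0202), lost in 1 of 28 alternatives, no expression filter.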

How the results depend on the processing

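The rise of Rxrg with cold in both genotypes and with the knockout in the cold, the falls of Rxra and Pparg in KO_cold against KO_RT and WT_cold, and the fall of Ppara with cold in WT kept their direction and passed in every alternative run. Over single libraries left out, the knockout in the cold gave -0.51 to -0.41 for Pparg, -0.61 to -0.44 for Rxra and 0.37 to 0.48 for Rxrg. With both WT_RT replicate 4 and WT_cold replicate 5 left out, Ppard passed for cold in WT (-0.30, adjusted p = 0.00820) and for the knockout at RT (-0.36, adjusted p = 0.0239), and Ppara for the knockout at RT turned to 0.0103. In that setting Rxra for cold in WT went from -0.45 to -0.62 (adjusted p = 1.11e-05). The interaction of Rxra went from -0.37 to -0.17 (adjusted p = 0.800). With the muscle term, Rxra for cold in WT was at -0.35, Ppara for cold in KO at -0.72, neither past the threshold, and Ppara for the knockout at RT turned to 0.0128. The Pparg interaction passed at -0.47 with no filter and -0.45 with DESeq2, and that of Rxrb turned to -0.0155 with no filter and -0.00576 with both strands. Over single libraries left out, cold in WT gave -0.25 to -0.10 for Ppard, -0.0104 to 0.0862 for Pparg and -0.0628 to 0.00187 for Rxrb, and cold in KO gave -0.65 to -0.43 for Ppara and -0.0433 to 0.00862 for Rxrb. The knockout at RT gave -0.0787 to 0.0450 for Ppara, -0.36 to -0.21 for Ppard and -0.0855 to 0.0107 for Pparg, and in the cold -0.0291 to 0.221 for Ppara. The interaction gave -0.0143 to 0.236 for Ppara, -0.48 to -0.39 for Pparg and -0.0278 to 0.0408 for Rxrb. The causes were not tested.

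The knockout at RT called 411 genes, 629 with DESeq2 and 267 to 356 over single libraries left out, with 267 without WT_RT replicate 5 and 269 without KO_RT replicate 4. The interaction called 113 genes, 271 with DESeq2 and 74 with WT_RT replicate 4 and WT_cold replicate 5 both left out; the share of higher calls was 57.5%, against 48.0% with DESeq2 and 44.4% with no filter. With longest-transcript lengths, Rxrg held 48.2% of the RXR sum in WT_cold and 60.9% in KO_cold. A fit of only the groups compared cannot be made for the interaction. Same-numbered libraries of different groups deviated together little (mean r 0.03, 7 of 30 pairs over 0.1). Other-numbered libraries of different groups gave a mean r of -0.007, with 20 of 120 pairs over 0.1. Numbers were not taken to pair libraries. The replicate block changed no call of the 6 receptors. With it, 8491 genes in WT and 8958 in KO were called for cold. It called 383 and 1078 for the knockout at RT and in the cold, and 94 for the interaction. Of 150 calls of other named genes, 36 were lost in at least 1 alternative and 0 turned.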
